A study of Mus musculus with 32 samples.

Results

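The IgG precipitates are 8 of the 32 libraries of this study: RNA pulled out of whole brain homogenate with a mouse IgG1 isotype control antibody, from 4 Sall1-CreER:RPL22-HA mice and from 4 Cx3cr1-CreER:RPL22-HA mice. They were chosen by the antibody and line that the column names of the raw exon count table give. All mice were on a C57BL/6 background, with no substrain in the labels, carried both a CreER allele and the RiboTag allele, received 5 mg of tamoxifen by gavage 4 times between 4 and 6 weeks of age, and were perfused. The other portions of the same 8 brains gave the anti-HA precipitates of homogenate (8 libraries) and sorted microglia (16 libraries), which serve here for comparison. Mice are named by their label numbers, 17, 21, 7 and 9 in the Sall1 line and 1, 2, 3 and 4 in the Cx3cr1 line, and each IgG library comes from a mouse of its own.

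In RiboTag mice, Cre recombinase switches the ribosomal protein gene Rpl22 to a form with a haemagglutinin (HA) tag, so that anti-HA beads collect the ribosomes and mRNA of recombined cells. CreER is a form of the recombinase that tamoxifen activates. It is driven here from Cx3cr1, the fractalkine receptor gene of microglia and other macrophages, or from Sall1, a transcription factor gene of microglia. An isotype control antibody does not recognise HA, so its precipitate holds RNA that clings to antibody, beads or tube without regard to the tag. That background is drawn from what the homogenate contains. A shift of it between lines would enter a comparison of HA precipitates without involving the tag.

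The libraries held gene counts of 2988804, 1765581, 704183 and 4047465 in Sall1 mice 17, 21, 7 and 9, and of 2200897 to 2470411 in the 4 Cx3cr1 mice. Between 14103 and 16190 genes had at least 1 read in the Sall1 libraries, against 15188 to 15594 in the Cx3cr1 libraries. Sall1 IgG 7 was thus the shallowest library. On the first principal component Cx3cr1 IgG 2 stood apart from its group at 74.2, against -25.7 to -8.90 for the other Cx3cr1 mice, whereas the Sall1 mice were spread from -39.0 (mouse 7) to 31.1 (mouse 9). Results that rest on these libraries are also given without them. The pairwise correlation of log2 CPM (counts scaled to the library total of gene counts) was 0.839 to 0.975 between lines, 0.896 to 0.965 within the Sall1 line and 0.875 to 0.973 within the Cx3cr1 line. With all 8 libraries, those of different lines were therefore about as alike as those of one line. The lowest values between lines and within the Cx3cr1 line were pairs with Cx3cr1 IgG 2. Without that library the correlation was 0.967 to 0.973 within the Cx3cr1 line and 0.918 to 0.975 between lines. Cx3cr1 libraries were then more alike than most pairs across lines. Reads of the female-specific RNA Xist were absent from all 8 libraries, whereas Ddx3y, a Y-linked gene, had 40.3 to 134.9 CPM in the Sall1 line and 13.4 to 120.2 CPM in the Cx3cr1 line.

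The background RNA was rich in neuronal and glial mRNAs. The series holds no library of the starting homogenate, so how closely the precipitates follow it was not tested. Apart from Rn45s, the ribosomal RNA precursor, the most abundant genes included Ckb (brain creatine kinase), Tuba1a and Tubb2a (tubulins), Nrgn (neurogranin, a postsynaptic protein), Mbp (myelin basic protein), Fth1 (ferritin heavy chain), Ppp3ca (calcineurin) and Rab3a (a synaptic vesicle GTPase). Ckb had 4289 to 4664 CPM in the Sall1 line and 3863 to 6097 CPM in the Cx3cr1 line. Nrgn had 3350 to 4370 CPM in the Sall1 line and 3246 to 4009 CPM in the Cx3cr1 line. Tuba1a had 3758 to 4759 CPM in the Sall1 line and 3335 to 6056 CPM in the Cx3cr1 line. The groups overlapped for each of these 3 genes. No single mRNA dominated, and the 10 most abundant genes took 3.14 to 5.10% of gene counts in the Sall1 line and 3.50 to 3.82% in the Cx3cr1 line. In HA precipitates the corresponding share was 7.68 to 8.84% in the Sall1 line and 16.3 to 17.2% in the Cx3cr1 line.

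Lists of neuronal and glial markers took overlapping shares of the gene counts in both lines. The 22 neuronal genes took 1.65 ± 0.149% in Sall1 IgG and 1.71 ± 0.129% in Cx3cr1 IgG (SD, n = 4 each, as for all means below). The 18 astrocyte genes took 0.869 ± 0.0397% and 0.884 ± 0.114%, and the 14 oligodendrocyte genes took 0.548 ± 0.0661% and 0.661 ± 0.0573%, each in the same order. The 22 microglial genes took 0.166 to 0.216% in Sall1 IgG and 0.188 to 0.271% in Cx3cr1 IgG, against 0.933 to 1.03% in Sall1 HA and 9.88 to 11.01% in Cx3cr1 HA. Marker shares of the HA precipitates therefore lay many-fold apart between lines for microglia, whereas those of the IgG precipitates overlapped. In such whole-tissue samples, fewer cells of a type and less RNA per cell cannot be told apart.

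Counts in IgG came from longer transcripts than in HA. The median annotated transcript length over the counts was 2859 to 3028 bases in Sall1 IgG and 2852 to 3087 bases in Cx3cr1 IgG, against 1938 to 1950 bases in Sall1 HA and 1912 to 1947 bases in Cx3cr1 HA. Cytosolic ribosomal protein genes took 1.27 to 1.71% in Sall1 IgG and 1.25 to 1.40% in Cx3cr1 IgG, against 2.28 to 2.38% in Sall1 HA and 2.57 to 3.09% in Cx3cr1 HA. Rn45s varied widely between mice, with 6948, 18485, 19616 and 5713 CPM in Sall1 mice 17, 21, 7 and 9 and 4999, 814, 5407 and 12564 CPM in Cx3cr1 mice 1 to 4. The groups overlapped, and the lowest value was that of Cx3cr1 IgG 2.

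The genes that drive CreER and carry the tag did not pass the test between the IgG precipitates. Sall1 had 14.1, 22.1, 7.10 and 15.3 CPM in Sall1 mice 17, 21, 7 and 9 and 18.2, 15.0, 14.4 and 13.02 CPM in Cx3cr1 mice 1 to 4 (log2 fold -0.015 ± 0.297, adjusted p = 0.9996). Cx3cr1 had 66.9, 51.5, 59.6 and 60.3 CPM in the Sall1 line and 74.5, 98.4, 65.5 and 71.2 CPM in the Cx3cr1 line (log2 fold -0.40 ± 0.19, adjusted p = 0.9996, and -0.23 without Cx3cr1 IgG 2). Rpl22 had 114 to 144.8 CPM in the Sall1 line and 112 to 121 CPM in the Cx3cr1 line (log2 fold 0.17 ± 0.15, adjusted p = 0.9996). All 3 genes had overlapping groups. Log2 folds are Sall1 over Cx3cr1 with their SE, and adjusted p values come from the quasi-likelihood test of edgeR, corrected over all genes tested by the Benjamini-Hochberg method.

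Across the transcriptome a single gene passed the test between the background of both lines. Of 11593 genes tested, 1 was higher in Sall1 IgG and 0 were lower at an adjusted p under 0.05, which is 0.00863% of genes. The same test called 4808 of 9092 genes (52.9%) between Sall1 HA and Cx3cr1 HA. At an unadjusted p under 0.05, 256 genes were higher and 111 lower in IgG, together 3.17% of those tested (367 genes). That count was 216 without Sall1 IgG 21, 939 without Cx3cr1 IgG 2 and 1366 without Cx3cr1 IgG 2 and Sall1 IgG 7. In 282 genes (2.43%) the 4 Sall1 values and the 4 Cx3cr1 values did not overlap, with the Sall1 values above in 1.68% of genes and below in 0.75%. The median log2 fold was -0.0058, 5% of genes lay below -0.41 and 5% above 0.50, and 82 genes reached an absolute log2 fold of 1. The median SE of a log2 fold was 0.26. Much larger differences also failed this test, such as log2 folds of 1.38 ± 0.26 for Mylk and -2.17 ± 0.67 for Hoxb5. The single call therefore does not exclude differences of that size in other genes at this depth and spread. The line difference itself differed between IgG and HA for 3965 of 12308 genes (32.2%) in a joint model of the 16 homogenate libraries. Between sorted cells of both lines, summed per mouse, 266 of 9966 genes (2.67%) were called, and 150 to 248 with each mouse left out. The count was 2078 with the Sort libraries taken by their titles, which may set unlike fractions against each other. By title, the 10 most abundant genes took 10.01 to 11.6% of gene counts in Sall1 Sort and 13.2 to 15.3% in Cx3cr1 Sort. In the sorted precipitates they took 14.2 to 17.2% and 9.49 to 11.7%, in the same order.

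Several of the genes with the lowest p values short of the threshold were genes of blood vessels. Mylk, the myosin light chain kinase of smooth muscle, had 40.5, 69.7, 49.7 and 39.8 CPM in Sall1 IgG and 25.4, 17.4, 17.5 and 15.2 CPM in Cx3cr1 IgG (log2 fold 1.38 ± 0.26, adjusted p = 0.985). DESeq2 called it (adjusted p = 0.0302), as did the edgeR test without Cx3cr1 IgG 2 and Sall1 IgG 9 (adjusted p = 0.0235). Ptprb, a phosphatase of endothelial cells, had 34.5 to 57.8 CPM in Sall1 IgG and 20.0 to 27.3 CPM in Cx3cr1 IgG (log2 fold 1.07 ± 0.22, adjusted p = 0.985). Mgp, the matrix Gla protein of vessel walls, had 78.6 to 149 CPM in Sall1 IgG and 42.1 to 69.5 CPM in Cx3cr1 IgG (log2 fold 1.15 ± 0.23, adjusted p = 0.985). Groups did not overlap in any of the 3. Gkn3, a gene of arterial endothelium, Des (desmin of muscle cells) and Eln (elastin) had log2 folds of 1.78, 1.23 and 1.604 and were also non-overlapping. So was Myh9 (non-muscle myosin heavy chain), at 0.81, but it is not particular to vessels. Myh9 had 141 to 225 CPM in sorted microglia, summed per mouse, and a log2 fold of -3.11 between HA precipitates. These genes were named after their values were seen.

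Vascular marker lists showed the same lean without a called member. All 10 tested endothelial genes of 12 had a log2 fold above 0, with a median of 0.60, where the median over all genes tested was -0.0058 and 5693 of 11593 lay above 0. Flt1, a VEGF receptor, had 52.5, 87.2, 73.8 and 87.2 CPM in Sall1 IgG and 55.0, 21.9, 45.8 and 30.0 CPM in Cx3cr1 IgG (log2 fold 0.97 ± 0.27, adjusted p = 0.9996). Slc2a1, the glucose transporter of the blood-brain barrier, and Cldn5, its tight junction claudin, had log2 folds of 0.70 ± 0.22 and 0.75 ± 0.36 with overlapping groups. The Cldn5 fold was 0.22 without Sall1 IgG 9, where it had 199 CPM against 52.5 to 90.1 CPM in the other Sall1 mice. Of 9 tested mural genes of 10 (pericytes and smooth muscle), 8 lay above 0 and the median was 0.63. Myh11 and Tagln, contractile genes of smooth muscle, had log2 folds of 1.42 ± 0.33 and 1.04 ± 0.34 (adjusted p = 0.9996 for both) with non-overlapping groups. At an unadjusted p under 0.05, 3 of 10 endothelial and 3 of 9 mural genes were higher, against 2.21% of all genes. Between HA precipitates, all 6 tested mural genes were called higher in the Sall1 line (27.2% of all genes tested were), with a median of 3.34. Of 3 endothelial genes tested there, 1 was called higher and 1 lower, with a median of -0.79.

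The summed vascular shares overlapped between the lines. The endothelial list took 0.0334, 0.0592, 0.0472 and 0.0786% of gene counts in Sall1 mice 17, 21, 7 and 9, against 0.0425, 0.0241, 0.0372 and 0.0263% in Cx3cr1 mice 1 to 4. Sall1 mouse 17 lay among the Cx3cr1 mice, and mouse 9 was highest. The mural list took 0.0276, 0.0467, 0.0408 and 0.0431% in the Sall1 line, against 0.0288, 0.0245, 0.0272 and 0.0238% in the Cx3cr1 line, again with mouse 17 among the Cx3cr1 values. The endothelial median was 0.40 without Sall1 IgG 9, and the mural median 0.41 without Cx3cr1 IgG 2. Without both libraries they were 0.17 and 0.33.

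Red blood cell genes leaned the same way. All 6 tested erythroid genes of 9 had a log2 fold above 0 (median 0.75), and all 6 are globin genes. They are not separate observations. Hbb-bs and Hbb-b1 overlap at one locus and had nearly the same reads, such as 204 and 202 in Sall1 mouse 17. The other globins also came in pairs of near-equal log2 fold, 0.74 and 0.75 for Hbb-b2 and Hbb-bt and 0.64 and 0.65 for Hba-a1 and Hba-a2. Hbb-bs, an adult beta-globin gene, had 68.3, 129, 126 and 76.3 CPM in Sall1 IgG and 28.6, 42.1, 47.5 and 69.0 CPM in Cx3cr1 IgG (log2 fold 1.06 ± 0.30, adjusted p = 0.9996). The groups overlapped, by the lowest Sall1 value and the highest Cx3cr1 value. How much blood stayed in each brain after perfusion was not tested.

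**Figure D1:**
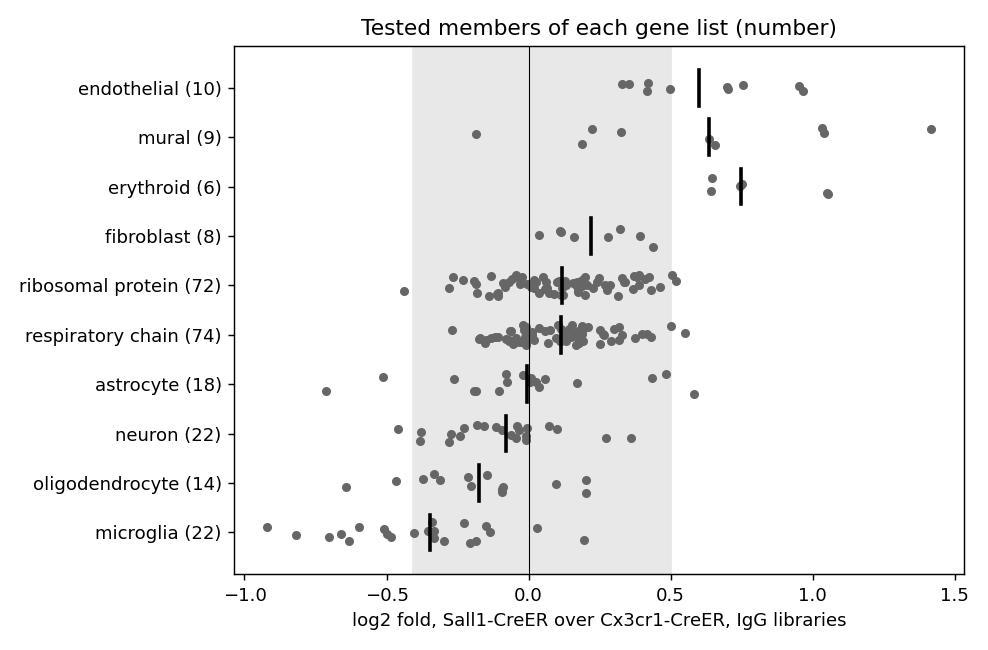
Log2 fold (Sall1 over Cx3cr1, IgG libraries) of every tested member of 10 gene lists, with a point per gene, a bar at each list's median and the 5% to 95% range of all genes tested, -0.41 to 0.50, in grey. The endothelial, mural and erythroid medians lie at 0.60, 0.63 and 0.75 and the microglial median at -0.35, and none of the points shown passed the test.

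Microglial genes leaned the other way, also without a called member. Of 22 tested microglial genes of 22, 20 had a log2 fold below 0 and the median was -0.35, where 5900 of 11593 genes lay below 0. Csf1r, the receptor that microglia need to survive, had 114, 92.3, 102 and 95.1 CPM in Sall1 IgG and 163, 142.5, 189 and 123 CPM in Cx3cr1 IgG (log2 fold -0.63 ± 0.17, adjusted p = 0.9996). Itgam, the integrin CD11b, had 21.7, 14.2, 9.94 and 17.8 CPM in Sall1 IgG and 31.8, 28.3, 28.7 and 26.9 CPM in Cx3cr1 IgG (log2 fold -0.82 ± 0.24, adjusted p = 0.9996). All Sall1 values of both genes lay below all Cx3cr1 values. C1qa, a complement chain of microglia, had 189 to 229 CPM in Sall1 IgG and 201 to 279 CPM in Cx3cr1 IgG, with overlap. Sparc, a matrix protein gene that astrocytes and endothelial cells also express, had 538 to 764 CPM in Sall1 IgG and 455 to 803 CPM in Cx3cr1 IgG. At an unadjusted p under 0.05, 8 of 22 microglial genes were lower, against 0.957% of all genes. Lair1, an inhibitory receptor of immune cells, and H2-Ab1, an MHC class II chain, had log2 folds of -1.003 ± 0.25 and -0.92 ± 0.26 (adjusted p = 0.9996 for both), non-overlapping. Both were named after their values were seen.

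The microglial difference in IgG was small beside that in HA, where all 22 microglial genes were called lower in Sall1 HA (25.7% of all genes tested were) and the median log2 fold was -3.95. The IgG and HA folds of single genes differed accordingly in the joint model. The difference of the log2 folds, IgG minus HA, was 3.85 ± 0.25 for Csf1r (adjusted p = 6.36e-11), 3.22 ± 0.27 for Cx3cr1 (adjusted p = 1.64e-09) and 2.19 ± 0.35 for Sall1 (adjusted p = 2.63e-05). Without Sall1 IgG 9 and Cx3cr1 IgG 2 the microglial median in IgG was -0.28.

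**Figure D2:**
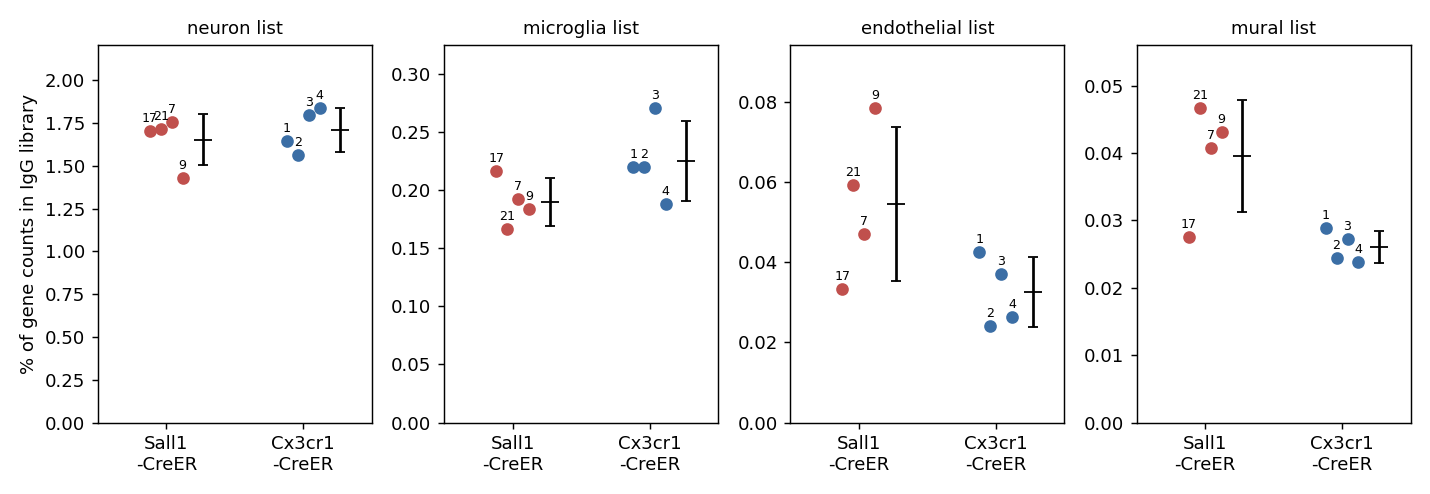
Share of gene counts taken by the neuronal, microglial, endothelial and mural lists in each IgG library, labelled by mouse number, with bars for the mean and SD over 4 mice and y axes that start at 0. Neuronal shares were 1.43 to 1.76% in Sall1 IgG and 1.56 to 1.84% in Cx3cr1 IgG, and the groups overlap in all 4 panels.

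**Figure D3:**
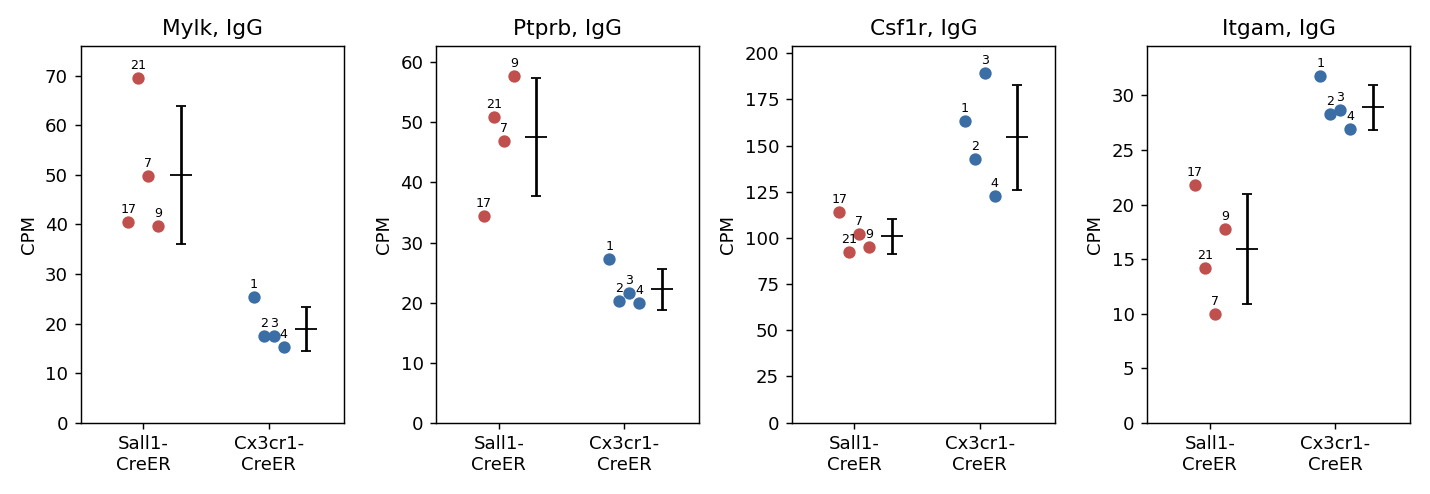
CPM of Mylk, Ptprb, Csf1r and Itgam in the IgG libraries, labelled by mouse number, with bars for the mean and SD over 4 mice and y axes that start at 0. Mylk was 39.8 to 69.7 CPM in Sall1 IgG and 15.2 to 25.4 CPM in Cx3cr1 IgG. The groups do not overlap in any of the 4 panels, although none of the 4 genes passed the edgeR test. All 4 were picked by their low p values, so the lack of overlap is no separate evidence.

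Medians of neurons, astrocytes and oligodendrocytes lay closer to 0, although the signs of neuronal and oligodendrocyte genes were also uneven. Below 0 lay 18 of 22 neuronal, 11 of 14 oligodendrocyte and 9 of 18 astrocyte genes, against 5900 of all 11593 genes tested. The median log2 fold was -0.078 over 22 neuronal genes, -0.0056 over 18 astrocyte genes and -0.18 over 14 oligodendrocyte genes, with 0 members called in any of the 3 lists. The neuronal and astrocyte medians changed sign under some alternatives. In HA, all 18 astrocyte genes were called higher in the Sall1 line (27.2% of all genes tested were), with a median of 3.07. Fibroblast genes had a median of 0.22 in IgG, with 8 of 8 tested above 0. The 72 tested cytosolic ribosomal protein genes had a median of 0.12 and the 74 nuclear-encoded respiratory chain genes a median of 0.11, again with 0 called, and the ribosomal median was -0.016 without Sall1 IgG 7. Lists for brain regions gave medians of 0.297 for hypothalamus, 0.28 for cerebellum, 0.25 for olfactory bulb, 0.22 for striatum, 0.17 for thalamus, -0.057 for hippocampus and -0.067 for excitatory neurons of the cortex, with 0 genes called. The hindbrain and spinal cord list, at -2.17 over 3 tested genes, is given with its members.

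Of 12 genes listed for hindbrain and spinal cord 3 were tested, and 2 had a log2 fold below 0 and 1 above it, with 0 called. The 1 above was Tph2, the serotonin synthesis enzyme of raphe neurons, with 10.4, 14.7, 19.9 and 5.44 CPM in Sall1 mice 17, 21, 7 and 9, against 9.996, 3.64, 21.5 and 8.25 CPM in Cx3cr1 mice 1 to 4 (log2 fold 0.083 ± 0.53, adjusted p = 0.9996). Hoxb5, a homeobox gene of hindbrain and spinal cord, had 13, 3, 3 and 0 reads in Sall1 mice 17, 21, 7 and 9, against 19, 18, 27 and 26 in Cx3cr1 mice 1 to 4 (log2 fold -2.17 ± 0.67, adjusted p = 0.9996). Hoxa5, of the same kind, had 15, 0, 3 and 1 reads in the Sall1 line and 25, 21, 25 and 17 in the Cx3cr1 line (log2 fold -2.19 ± 0.71, adjusted p = 0.9996). The groups did not overlap for either gene. The size of both folds rested on single Sall1 mice, with log2 folds of -3.15 for Hoxb5 and -3.76 for Hoxa5 without mouse 17, and -1.49 and -1.58 without mouse 9. Hoxb6 and Hoxb8, below the count filter, had 2 and 1 reads in Sall1 mouse 17 and 0 in the other 3, and 7 to 11 and 2 to 15 reads in the Cx3cr1 mice. Glra1, the glycine receptor subunit of brainstem and spinal cord, had 45.2, 18.1, 35.5 and 17.8 CPM in Sall1 IgG and 52.7, 72.9, 61.9 and 77.3 CPM in Cx3cr1 IgG (log2 fold -1.22 ± 0.32, adjusted p = 0.9996). How much spinal cord each brain carried was not tested. Glra1, which is not in the list, and Hoxb6 and Hoxb8 were named after their values were seen.

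A few single genes outside the lists were also among the lowest p values. Wdfy1, an endosomal adaptor, had 44.0 to 72.4 CPM in Sall1 IgG and 74.5 to 99.1 CPM in Cx3cr1 IgG (log2 fold -0.70 ± 0.19, adjusted p = 0.9996). Ccl21b, a chemokine gene that has identical counts to 4 copies in the table, had 2.84 to 6.23 CPM in Sall1 IgG and 8.68 to 13.5 CPM in Cx3cr1 IgG. Atrip, a DNA damage response gene, and its neighbour Trex1, an exonuclease gene, had log2 folds of -1.39 ± 0.41 and -0.97 ± 0.32, with overlapping groups, and of -0.88 and -0.61 without Cx3cr1 IgG 3. They too were named after their values were seen. Near the CreER loci, 0 of 125 tested genes within 10 Mb of Sall1 and 0 of 95 within 10 Mb of Cx3cr1 were called by edgeR, against 0.00863% of all genes. At an unadjusted p under 0.05 there were 7 and 4, against 3.17% of all genes.

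The first axis of variation among IgG libraries did not separate the lines. The first principal component held 52.3% of the variance and put Cx3cr1 IgG 2 at 74.2, Sall1 IgG 9 at 31.1 and Sall1 IgG 7 at -39.0. The second held 14.3% and ran from -8.50 to 36.8 in the Sall1 line and from -20.0 to 1.35 in the Cx3cr1 line. Loadings of the first component followed transcript GC content (Spearman's rho 0.616 across 11554 genes, which share libraries and are not independent replicates), and length less so (rho -0.19). Most of the genes with the lowest loadings were AT-rich. Gdap1, a mitochondrial fission gene, had 174, 96.9, 247 and 46.2 CPM in Sall1 mice 17, 21, 7 and 9, against 150.4, 12.95, 225 and 192 CPM in Cx3cr1 mice 1 to 4. It was lowest in Cx3cr1 IgG 2 and next lowest in Sall1 IgG 9.

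At the high end, Dact3, a Wnt pathway regulator, had 119, 141, 112 and 124 CPM in Sall1 IgG and 99.5, 326, 69.5 and 89.0 CPM in Cx3cr1 IgG. Pianp, a neuronal membrane protein gene, had 172, 187, 92.3 and 252 CPM in Sall1 IgG and 132, 334, 133 and 127 CPM in Cx3cr1 IgG. Cx3cr1 IgG 2 was the highest library for both. The contrast in base composition between Gdap1 and these genes can be read from 120 bases at the middle of each coding sequence (GENCODE vM21, coding strand), with G and C in capitals.
Gdap1: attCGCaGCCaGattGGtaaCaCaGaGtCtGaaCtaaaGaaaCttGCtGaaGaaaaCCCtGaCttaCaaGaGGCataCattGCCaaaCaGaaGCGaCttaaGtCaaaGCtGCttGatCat
Dact3: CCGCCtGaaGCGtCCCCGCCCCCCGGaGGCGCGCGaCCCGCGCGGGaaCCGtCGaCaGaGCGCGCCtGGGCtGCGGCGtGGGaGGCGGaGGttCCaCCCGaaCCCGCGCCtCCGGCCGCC
Pianp: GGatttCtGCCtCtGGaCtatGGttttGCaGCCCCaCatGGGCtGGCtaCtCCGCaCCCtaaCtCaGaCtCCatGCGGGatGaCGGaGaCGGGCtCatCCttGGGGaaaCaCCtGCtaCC

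G and C made up 41.7% of the stretch of Gdap1, on chromosome 1, and 80.8% and 58.3% of those of Dact3 and Pianp, on chromosomes 7 and 6. Over their whole transcripts the shares were 41.0%, 66.4% and 59.9% in the same order. Dact3 and Pianp were more GC-rich than other high-end genes with larger loadings, such as Ddit4 at 57.9%, Dlg4 at 54.5% and Polr2a at 52.4%. At the low end Cadm2 was at 48.2%. The stretches shown are therefore not typical of each end.

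**Figure D4:**
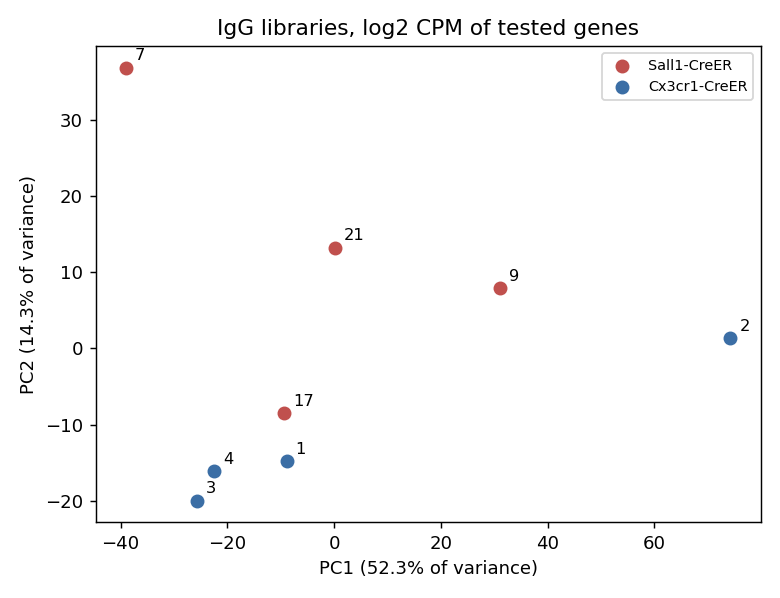
First against second principal component of log2 CPM for the 8 IgG libraries, labelled by mouse number, with the percent of variance on each axis. Cx3cr1 mouse 2 lies at 74.2 and Sall1 mouse 9 at 31.1 on the first axis, which does not separate the lines.

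The genes in the lowest of 5 equal bins of GC content (up to 45.2% of bases) took 10.6, 9.85, 12.8 and 8.67% of gene counts in Sall1 mice 17, 21, 7 and 9, against 10.7, 5.77, 12.6 and 12.2% in Cx3cr1 mice 1 to 4. In HA precipitates the same genes took 5.28 to 5.96% in the Sall1 line and 4.50 to 5.49% in the Cx3cr1 line. Cx3cr1 IgG 2 was close to the HA libraries in this respect and in its gene counts as a percent of the total in its column name. That percent was 85.1%, against 86.0 to 87.1% in Sall1 HA, 85.3 to 86.4% in Cx3cr1 HA and 73.8 to 80.7% in the other 7 IgG libraries. The column names do not say what that total counts. Cx3cr1 IgG 2 was unlike the HA libraries in its microglial share, 0.22%, and in its median transcript length, 2852 bases. Gdap1 had at most 0.991 CPM in Sall1 HA and at most 6.96 CPM in Cx3cr1 HA, whose libraries were shallow at 286418 to 574671 gene counts. The part of GC content in the line comparison was not tested beyond a fit that removes its trend, which also called 1 gene. Between-mouse variation (edgeR's common biological coefficient of variation) was 23.3% in Sall1 IgG and 29.4% in Cx3cr1 IgG, and 14.8% in Cx3cr1 IgG without mouse 2.

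**Figure D5:**
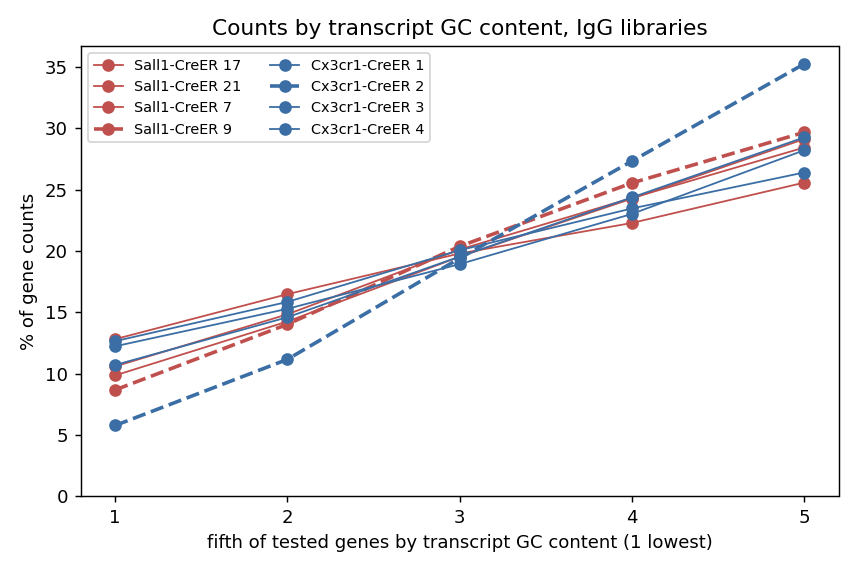
Percent of gene counts in each of 5 bins of tested genes by transcript GC content, with a line per IgG library and dashed lines for Cx3cr1 mouse 2 and Sall1 mouse 9. In the lowest bin Sall1 mouse 9 had 8.67% and Cx3cr1 mouse 2 had 5.77%, and the other 6 libraries had 9.85 to 12.8%.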

How the data were processed

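The authors deposited raw, unnormalized counts of exon reads per gene (24411 genes, 32 libraries). The submitters' processing notes name bcl2fastq, HOMER, HISAT 0.1.5 and the mm9 build. How multiply mapped reads and strand were handled is not stated, so genes with near-identical copies or overlaps are uncertain.

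Genes passing the default low-count filter (minimum count 10) were fitted with edgeR 4.0.16 (R 4.3.3), as a robust quasi-likelihood test with TMM scaling, and called at a Benjamini-Hochberg adjusted p under 0.05. The interaction of line and antibody used the 16 homogenate libraries, without a term for the mouse, although the labels say that each brain was divided and thus pair IgG with HA. For 8 sorted Cx3cr1 libraries the title and the column name disagree on the fraction, so both sorted libraries of a mouse were summed. Alternatives were DESeq2 1.42.0, other scalings, no filter, thinning to the smallest library, a joint fit, removal of a length or GC trend, each library left out, and shares per kilobase. The statistic was checked on simulated data. GC content came from GENCODE vM21 transcripts, found for 99.7% of tested genes. Errors are SDs over mice or SEs of the fit, and include variation between mice.

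Named genes are Sall1, Cx3cr1, Rpl22, the 10 most abundant in IgG, called genes, per list the 2 most abundant and the 2 with the smallest p, and others named as chosen after their values were seen. Members, lists and rules were chosen with earlier results of these data known. Some genes that fall under this rule are not reported here.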

Additional observations from a re-analysis of the deposited data

Results flagged for a closer look

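Of 126 sets of 4 values checked within a line, 12 had a highest or lowest library that stood apart from the other 3, which is 9.52%. Chance alone gives about 1 in 20 for independent sets. These sets are not independent, and some are genes named after their values were seen. The share is therefore not read as an excess over chance.

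In the Sall1 line, mouse 9 had the shortest median transcript length (2859 bases, others 3002 to 3028) and the lowest neuronal share (1.43%, others 1.71 to 1.76%). Mbp was highest in mouse 17 (3180 CPM, others 2340 to 2471 CPM), as were Hoxb6 (0.669 CPM) and Hoxb8 (0.335 CPM) with 0 in the others, and Lair1 was lowest in mouse 7 (5.68 CPM, others 7.36 to 7.66 CPM).

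In the Cx3cr1 line, mouse 2 stood apart on the first principal component (74.2, others -25.7 to -8.90), in Dact3 (326 CPM, others 69.5 to 99.5 CPM), Pianp (334 CPM, others 127 to 133 CPM) and Ddx3y (13.4 CPM, others 117 to 120.2 CPM). Dact3 and Pianp were picked by their loadings on that component, so they are no separate evidence. Mouse 1 had the highest oligodendrocyte share (0.746%, others 0.625 to 0.638%), and mouse 4 the lowest Tubb2a (1896 CPM, others 2815 to 2969 CPM).

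The line difference differed between IgG and HA precipitates for 3965 genes, by the interaction term in edgeR. Among them were Sall1, with a difference of log2 folds of 2.19, and Cx3cr1, with 3.22.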

How the results depend on the processing

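No paired analysis was possible because the IgG groups compared come from different mice and share no replicate number. For the difference of line differences, where IgG and HA come from one brain, the fit with the mouse as replicate block called 4151 genes, against 3965 without it, and leaving out each mouse gave 3390 to 3985.

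Calls between IgG groups numbered 1 in the reported fit, 2 with DESeq2, 2 without Cx3cr1 IgG 2 and Sall1 IgG 9, and 0 to 1 with each library left out, with 0 only without Cx3cr1 IgG 1 (294 genes at an unadjusted p under 0.05). Genes at an unadjusted p under 0.05 numbered 216 to 939 with each library left out and 1366 without Cx3cr1 IgG 2 and Sall1 IgG 7. The fits without a pair of libraries and without the GC trend were added after the data were seen. Sorted calls numbered 150 to 248 with each mouse left out, against 266. They numbered 2078 with Sort libraries taken by title, which may set unlike fractions against each other.

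Per kilobase, shares were 0.671% (Sall1) and 0.679% (Cx3cr1) for astrocytes, 0.239% and 0.290% for microglia in the same order, and, in the Cx3cr1 line, 0.593% for oligodendrocytes and 0.0227% for mural genes.

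Small log2 folds changed sign. With each library left out, Sall1 ran from -0.25 to 0.14, the neuronal median from -0.16 to 0.050, the astrocyte median from -0.056 to 0.042 and the ribosomal median from -0.016 to 0.19. By total count, Sall1 was 0.0098 and the astrocyte median 0.015. Without Cx3cr1 IgG 2 and Sall1 IgG 9, Sall1 was 0.056. Without Cx3cr1 IgG 2 and Sall1 IgG 7, Sall1 was 0.14, the ribosomal median -0.038 and the respiratory median -0.0021. The causes were not tested. The depth of Sall1 IgG 7 limits genes with few reads.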
